A study of Pinus pinaster with 24 samples.

Results

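The features described here are 200 transcript features of maritime pine (Pinus pinaster) seedlings whose level was low in cotyledons and broadly even in the other organs sampled. They were chosen from 67271 features by their level in the 12 libraries of control seedlings, on the scale log2(normalized CPM + 0.5), with the 3 libraries of an organ averaged. Roots, stem and needles had to lie within 2 log2 units of each other, which 53986 features did. The gap was then the lowest of these 3 means minus the cotyledon mean, and the 200 features with the widest gap were kept. A positive gap means that cotyledons were lower than each of the other organs.

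All seedlings were 4 months old and of the Segura-Alcaraz provenance. From 1 month after germination they had received 0.3 mM KNO3 once a week for 3 months, a feed without sulfur. The sulfate group then received 0.5 mM K2SO4 and the control group 1 mM KCl, and cotyledons, roots, stem and needles were sampled 24 h later. There were 3 libraries in each of the 8 groups, all from pooled tissue of 13 to 14 seedlings, so differences between single plants are averaged.

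Cotyledons are the seed leaves. In pines they emerge at germination in a whorl, turn green, and feed the seedling until the needles take over, after which they age and are shed. Needles and cotyledons are thus both photosynthetic leaves, of different age and origin, while roots and stem form the axis of the plant. A transcript that needles share with roots and stem but cotyledons lack is therefore not set apart by being absent from leaves in general. The files pair no feature identifier with a gene name, so no function, gene list or organ marker could be matched, and the organ labels were not checked against markers. In RNA from whole organs, fewer cells of a type and less RNA per cell cannot be told apart.

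By counts recovered from the deposited values, libraries held 92664463 to 195881948 reads over the 67271 features. The deepest was cotyledon control 1, and a level of 3 reads was 0.0165 to 0.0351 normalized CPM. Of the recovered counts from 1 to 20 in a library, 57.9 to 69.9% were even. Reads can therefore not be taken as independent fragments, and the reason was not tested. Levels are per library and not per transcript length, so they are compared between libraries and not between features. Comparisons between organs rest on the authors' scaling, whose factors ran from 0.877 to 1.22.

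In the control libraries, which chose the features and so give a description only, the gap ran from 3.26 to 5.75 with a median of 3.65 log2 units. Cotyledons stood at a median of 4.03% of the lowest other organ on the linear scale, and at most at 9.44%. The median member had a mean of 0.605 normalized CPM in control cotyledons, against 23.4 in roots, 25.8 in stem and 15.2 in needles. All 200 features had 3 cotyledon values below all 9 values of the other organs, as did 18.9% of all features; nothing is read from this count, since these libraries chose the members. With the 0.5 added before the logarithm, a feature can reach the gap of the last member where the other organs are high enough, which left 25175 features that could have entered.

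The boundary of the set was not a natural break. The last 3 members by rank were PpCO2_56009, PpCO2_116529 and PpCO2_45837, with gaps of 3.28, 3.26 and 3.26. The features just outside, PpCO2_31118, PpCO2_101417 and PpCO2_90735, had gaps of 3.25, 3.25 and 3.24. 

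**Figure D1:**
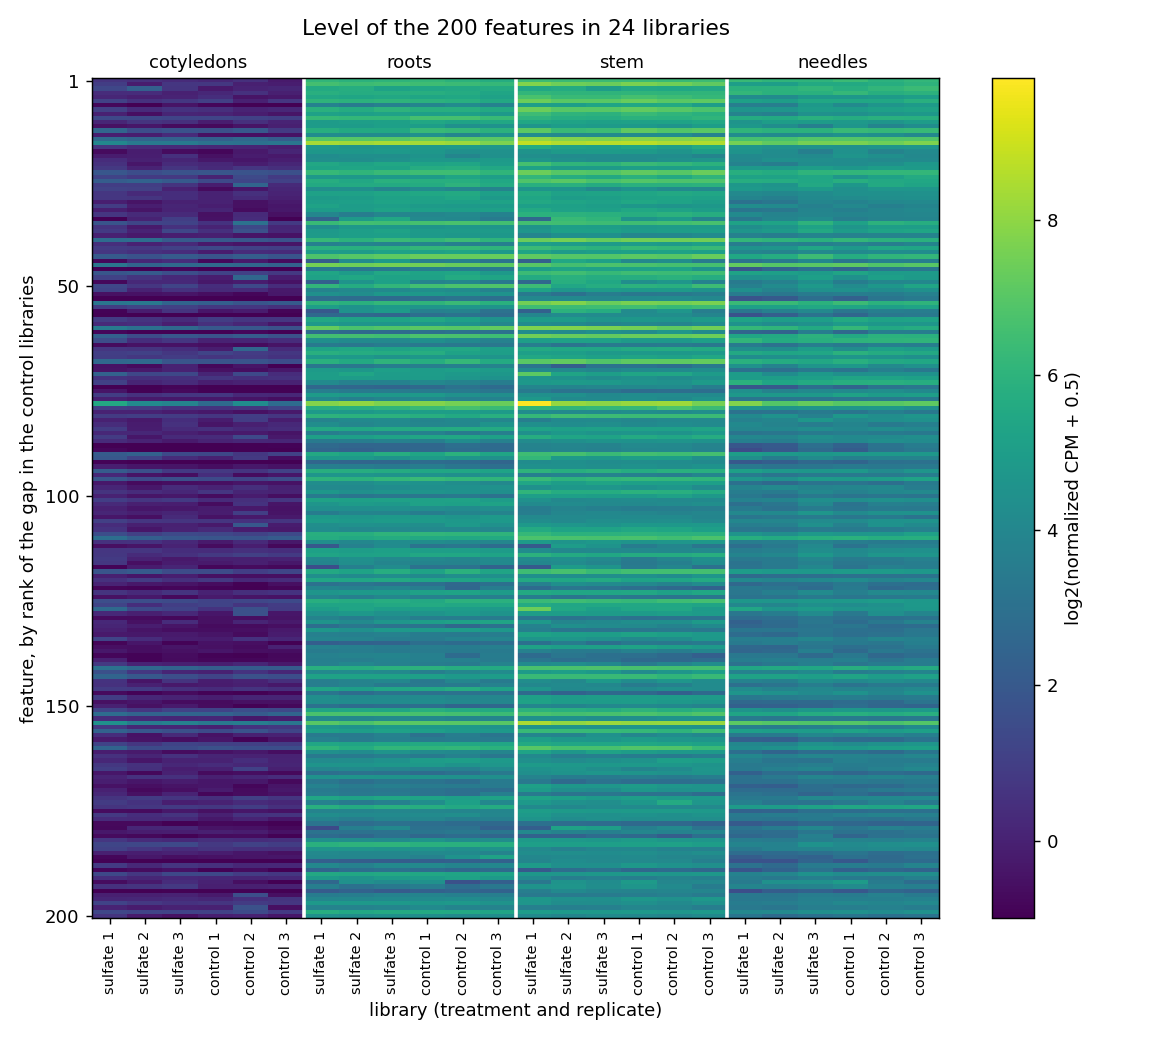
Level of the 200 features (rows, by rank of the gap in control libraries) in 24 libraries (columns, 3 per organ and treatment), as log2(normalized CPM + 0.5). The 6 cotyledon libraries are darker than the other 18 in every row, in sulfate as well as in control libraries, and stem is the brightest organ for most rows.

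Whether the features were also low in cotyledons of seedlings that had no part in choosing them was tested in the 12 sulfate libraries. All 200 were lower in sulfate cotyledons than in each of sulfate roots, stem and needles (limma, Benjamini-Hochberg adjusted p under 0.05 in all 3 contrasts), against 12.5% of the 66882 features tested. The largest adjusted p of the 3 contrasts was 1.43e-08 for the median member and 0.00854 for the weakest. The filter on low values removed no member, and the count was also 200 with no filter. With a difference of at least 4-fold asked for in each contrast, 200 of 200 members passed, against 1.35% of all features tested. Taken by organ, 37.9% of all features tested were lower in cotyledons than in roots, 33.5% than in stem and 20.3% than in needles, beside 200 of 200 members each. The 3 cotyledon values lay below all 9 other values for 200 members and for 13.8% of all features.

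The depth of the depletion in sulfate seedlings was close to that in the control seedlings but mostly shallower. The gap in sulfate libraries ran from 2.53 to 5.55, with a median of 3.37, beside a median of -0.28 over all features tested. Cotyledons stood at a median of 5.14% of the lowest other organ and at most at 15.4%. By organ, the median member differed by -4.14 between cotyledons and roots, -4.37 between cotyledons and stem and -3.41 between cotyledons and needles on the log2 scale, and the medians over all features tested were -0.02, -0.01 and 0.00. The gap was narrower in sulfate than in control libraries for 167 members and wider for 33, with a median shift of -0.34. Because the members were picked for low control cotyledon values, a shift in this direction is built into the choice, and it was not tested. Across the 200 members the 2 gaps had a Pearson correlation of 0.784 and a Spearman correlation of 0.711; they come from different seedlings but share the organs, the scaling and neighbouring identifiers.

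**Figure D2:**
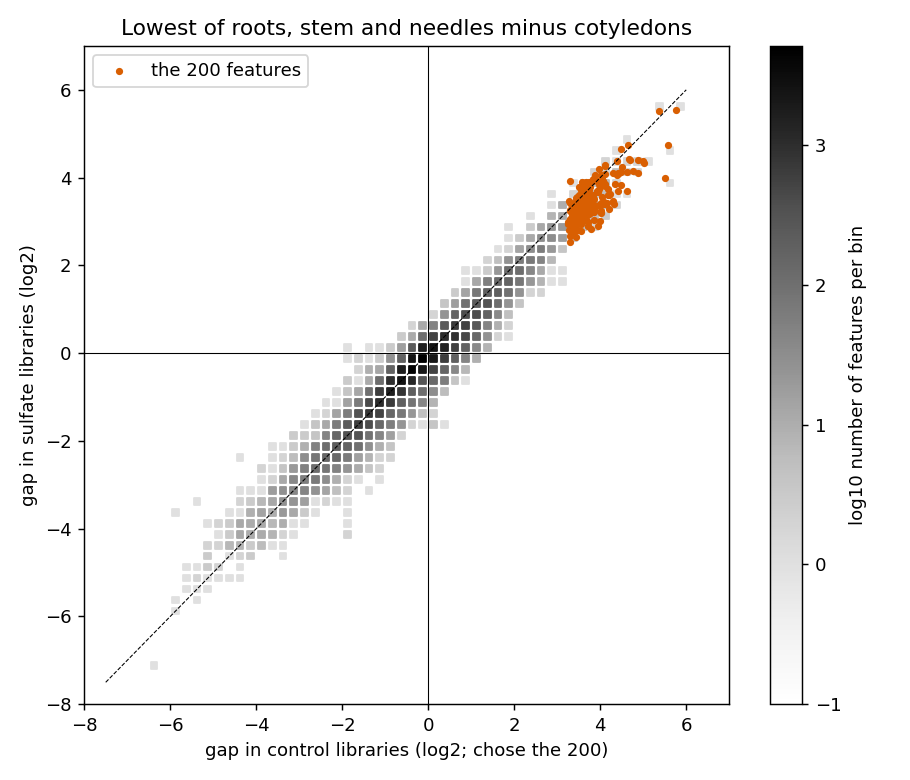
Gap between cotyledons and the lowest of roots, stem and needles in sulfate libraries (vertical axis) against control libraries (horizontal axis), both in log2 units, for the 53986 features within the width limit (grey squares, shaded by number of features) and the 200 chosen features (orange points). The chosen features lie at 2.53 to 5.55 on the vertical axis, and most fall below the dashed line of equal gaps.

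PpCO2_74393 had the widest gap in both sets of libraries. Its levels were 1.05, 0.933 and 0.752 normalized CPM in sulfate cotyledons, against 69.7, 61.7 and 64.6 in sulfate roots, 84.4, 81.2 and 83.1 in sulfate stem and 77.9, 67.4 and 65.6 in sulfate needles. The other organs lay close together and far above cotyledons, with no overlap. The difference was -5.55 ± 0.09 from roots, -5.89 ± 0.09 from stem and -5.65 ± 0.09 from needles in log2 units (SE; by limma, largest Benjamini-Hochberg adjusted p = 4.8e-12). In control seedlings it stood at 0.664, 0.919 and 0.356 in cotyledons, against 70.3, 60.6 and 50.7 in roots. Its neighbour by identifier, PpCO2_74394, had the same shape, with 0.79, 0.781 and 0.494 in sulfate cotyledons, against 55.5, 51.5 and 53.1 in sulfate roots, and a sulfate gap of 5.51.

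PpCO2_17901, the second by rank, was uneven among the other organs. It had 1.43, 0.391 and 1.16 normalized CPM in sulfate cotyledons, against 33.0, 32.9 and 47.6 in sulfate needles, 96.3, 83.7 and 90.5 in sulfate roots and 219, 171 and 159.8 in sulfate stem. Stem was the highest organ, needles the lowest of the 3, and none of their values came near cotyledons. Its gap was 4.73 in sulfate and 5.58 in control libraries.

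PpCO2_128580, the third by rank, lost the most depth between the 2 sets of seedlings. It had 1.99, 4.29 and 1.10 normalized CPM in sulfate cotyledons, against 0.340, 0.543 and 0.634 in control cotyledons, with no overlap. In the other organs its values ranged from 31.9 to 68.8 in sulfate and 42.4 to 82.3 in control libraries. The cotyledon difference between sulfate and control did not pass (log2 difference 1.42, SE 0.39; limma, Benjamini-Hochberg adjusted p = 0.441). Its sulfate gap was still 3.98.

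PpCO2_156936 and PpCO2_156935, neighbours in a run of 4 members, completed the 5 widest sulfate gaps, at 4.75 and 4.65. PpCO2_156936 had 0.197, 0.293 and 0.129 normalized CPM in sulfate cotyledons, or 19, 27 and 12 reads, against 25.9, 19.5 and 12.4 in sulfate needles. The 5 narrowest were PpCO2_112767 (2.78), PpCO2_25255 (2.75), PpCO2_87694 (2.66), PpCO2_40957 (2.64) and PpCO2_101294 (2.53). Even in PpCO2_101294 the 3 sulfate cotyledon values of 1.28, 0.684 and 1.10 lay under the sulfate needle values of 7.89, 6.21 and 10.96, and the difference from needles was -2.53 ± 0.22 (SE; limma, Benjamini-Hochberg adjusted p = 2.64e-06).

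**Figure D3:**
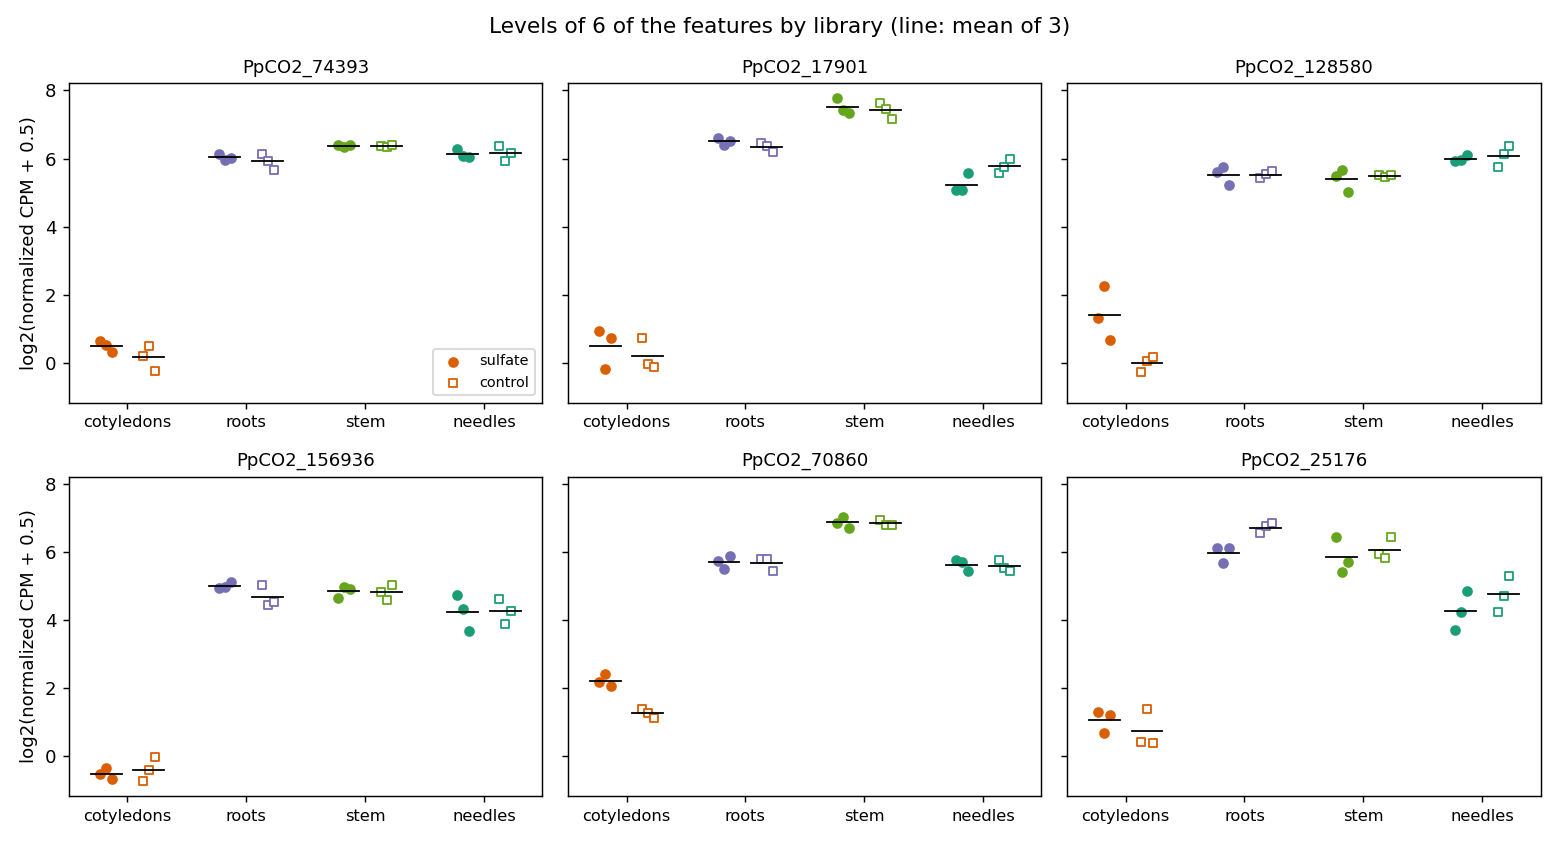
Levels of 6 members, as log2(normalized CPM + 0.5), in each library of cotyledons, roots, stem and needles (filled circles sulfate, open squares control, line the mean of 3). Cotyledon points lie below all points of the other organs in each panel. PpCO2_70860 is higher in sulfate than in control cotyledons, and PpCO2_25176 is lower in sulfate than in control roots.

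Low did not always mean undetected. Of the 200 members, 127 had a mean under 1 normalized CPM in sulfate cotyledons and 138 in control cotyledons, and 10 and 4 reached a mean of 5. Between 4 and 11 members had 0 reads in a single sulfate cotyledon library, and 8 to 11 in a single control one. In roots, stem and needles no member had 0 reads in any library. Members at 0 reads in all 3 cotyledon libraries were 2 with sulfate, PpCO2_109988 and PpCO2_109989, and 5 in controls, PpCO2_101413, PpCO2_101414, PpCO2_109989, PpCO2_177780 and PpCO2_8474. They were named after their values were seen. PpCO2_109989 had 0 reads in all 6 cotyledon libraries, against 2.87, 3.68 and 7.11 normalized CPM in sulfate needles, 6.86, 6.56 and 6.29 in sulfate roots and 15.8, 16.9 and 15.3 in sulfate stem. It was at least 142-fold lower in sulfate cotyledons than in sulfate needles, its lowest other organ, and at least 284-fold lower in control cotyledons than in control roots, taking 3 reads per library as the floor. Reads are not independent molecules here, so such floors cover counting error only.

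The members with the largest mean outside cotyledons kept clear cotyledon reads. PpCO2_39190 had 15.5, 9.71 and 10.6 normalized CPM in sulfate cotyledons, against 188, 146 and 185 in sulfate needles and 330.2, 311 and 335 in sulfate roots. PpCO2_29845 had 21.7, 10.8 and 12.9 in sulfate cotyledons, against 129.6, 109 and 132 in sulfate roots. PpCO2_56014 had 5.90, 4.98 and 4.58 in sulfate cotyledons, against 98.1, 101 and 119.7 in sulfate needles. All 3 features had at least 427 reads in each sulfate cotyledon library, so their low level was measured rather than missed. PpCO2_25515 had 9.10, 5.03 and 6.03 in sulfate cotyledons, against 128, 96.2 and 106 in sulfate stem. PpCO2_134587, described with the uneven libraries, was the fifth of these.

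Summed, the 200 members took 0.0265 ± 0.0067% of the reads in sulfate cotyledons (SD, n = 3), against 0.795 ± 0.027% in sulfate roots, 1.01 ± 0.09% in sulfate stem and 0.410 ± 0.058% in sulfate needles. The control values were 0.0191 ± 0.0041% in cotyledons, 0.797 ± 0.047% in roots, 0.953 ± 0.019% in stem and 0.451 ± 0.023% in needles.

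A gap this wide was more frequent for cotyledons than for the other organs. With the same rule and another organ in the low position, a gap at least as wide as that of the last member was found in control libraries for 37 features low in roots, 7 low in stem and 0 low in needles, beside the 200 low in cotyledons. The number of features high enough in the other organs to reach it was alike, at 25175 for cotyledons, 24773 for roots, 23479 for stem and 23348 for needles. In sulfate libraries, which did not set that width, the counts were 120 for cotyledons, 30 for roots, 13 for stem and 0 for needles. At a gap of at least 1, sulfate libraries held 2732 features low in cotyledons, 1429 low in roots, 713 low in stem and 324 low in needles. The widest single gaps belonged to roots, at 6.37 in sulfate and 7.25 in control libraries. The difference between organs in these counts was not tested, since features are not independent.

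**Figure D4:**
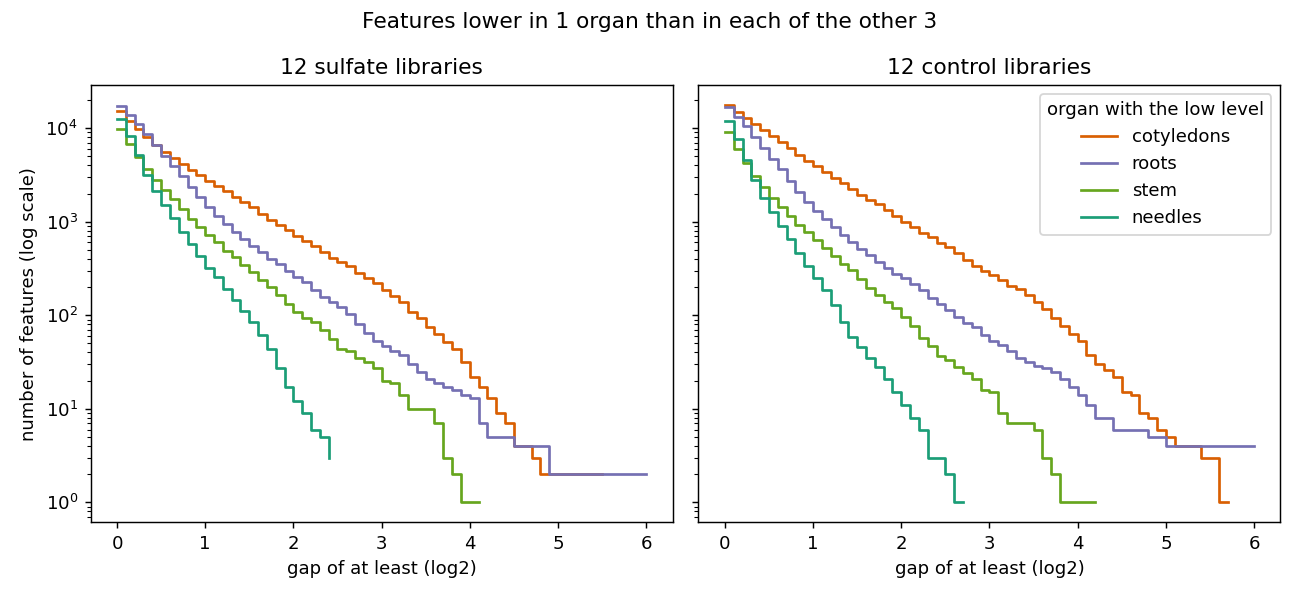
Number of features (log scale) whose level in 1 organ lay below each of the other 3 by at least the gap on the horizontal axis (log2 units), in sulfate (left) and control (right) libraries, with the other 3 organs within 2 log2 units. From a gap of 1 to a gap of 4 the cotyledon line is the highest in both panels. The needle line is the lowest from a gap of 1 until it ends, at 2.4 in sulfate and 2.7 in control libraries.

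Among the 3 organs in which the members were present, stem was most often highest and needles most often lowest. The rule limited their spread to 2 log2 units in control libraries but did not set their order. In sulfate libraries 134 members were highest in stem, 52 in roots and 14 in needles, and 152 were lowest of the 3 in needles. In control libraries these numbers were 122, 55, 23 and 132. The highest organ was the same in both treatments for 174 members. No share over all features stands beside these counts, so they describe the members only. Stem values lay above needle values without overlap in sulfate libraries for 141 members, against 37.1% of all features tested, and below them for 14, against 29.1%. Stem lay above roots without overlap for 104 members (38.4% of all features tested) and below for 41 (32.1%). Roots lay above needles for 119 (40.1%) and below for 15 (33.3%). The order stem, roots, needles held for 114 members in sulfate libraries, again without a share over all features. In 21 members the spread of the 3 organs exceeded 2 in sulfate libraries.

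Many members had neighbouring identifiers. Of the 200, 117 had another member at most 2 numbers away, and joining such neighbours where their Pearson correlation over all 24 libraries exceeded 0.8 gave 130 runs, of which 83 were single features. In the 70 neighbouring pairs the correlation across libraries was 0.975 to 0.999. The shared low organ by itself raises such values, and how much of them it sets was not measured. Around the group means it had a median of 0.846 and ran from 0.060 to 0.987. What the numbering follows is not given in the sources used here, and whether close copies shared reads in the authors' counting was not tested, so the 200 members cannot be taken as 200 independent transcripts.

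The longest run was PpCO2_39127 to PpCO2_39133, with 5 members, and PpCO2_39131 had its highest mean. It stood at 3.22, 2.11 and 2.60 normalized CPM in sulfate cotyledons, against 25.4, 21.3 and 30.5 in sulfate needles, 63.6, 61.2 and 70.5 in sulfate roots and 79.4, 63.0 and 68.2 in sulfate stem. The run PpCO2_147939 to PpCO2_147942 held 4 members, and PpCO2_147939 had 1.39, 0.434 and 0.601 in sulfate cotyledons, against 19.3, 17.5 and 12.7 in sulfate needles. In both, needles were the lowest of the other organs and did not overlap cotyledons. The 334 features at most 2 numbers from a member that were not members themselves had a median sulfate gap of 0.46, against -0.28 over all features. A gap of at least 1 was held by 142 of them (42.5%), against 5.56% of all features. A gap below 0 was held by 36.8% of them, against 70.5% of all features.

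The comparison of sulfate with control asks which of these transcripts could be called changed 1 day after sulfate was given to starved seedlings. Few were called. Simulated reads were used to see which falls the fits find, in features at 5 normalized CPM or more in every library. Falls of 2-fold were recovered for 48 of 50 features in roots, 43 in stem, 27 in cotyledons and 22 in needles. An absent call therefore does not show an unchanged level. In cotyledons a mean of 5 was reached by 10 members with sulfate and 4 in controls, and no rises were simulated. The cotyledon figure thus does not cover most of the members. By limma, with a Benjamini-Hochberg adjusted p under 0.05, 5 of 200 members fell in roots and 1 rose, against 1.38% of all features tested that fell and 0.487% that rose. These shares are near the background. At an unadjusted p under 0.05, 30 were lower and 18 higher in roots, against 6.87% and 7.63% of all features tested. Every such contrast uses the control libraries that chose the members.

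PpCO2_25176 had the largest fall in roots among the 5 members that passed. It had 68.4, 50.2 and 69.0 normalized CPM in sulfate roots, against 92.7, 107 and 113 in control roots. The groups did not overlap, with a log2 change of -0.74 and an SE of 0.13 (limma, Benjamini-Hochberg adjusted p = 0.0347). Its neighbour PpCO2_25175 fell by 0.70 ± 0.14 (limma, Benjamini-Hochberg adjusted p = 0.0482), to 24.1, 17.5 and 25.4 in sulfate roots, against 33.1, 35.8 and 39.7 in control roots. PpCO2_72513 fell by 0.62 ± 0.09 (limma, Benjamini-Hochberg adjusted p = 0.0168), to 18.1, 19.02 and 22.4 in sulfate roots, against 30.7, 32.9 and 28.2 in control roots. The 3 sulfate root values were below the 3 control root values in each. PpCO2_72513 was also lower in stem, where the change was not called. It had 20.4, 18.1 and 20.2 in sulfate stem, against 23.1, 34.0 and 32.4 in control stem, without overlap. In needles its sulfate values of 11.8, 8.81 and 8.20 overlapped the control values of 12.6, 11.2 and 10.7.

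PpCO2_137562 was the member that rose in roots, with 54.2, 53.4 and 49.97 normalized CPM in sulfate roots, against 43.0, 42.5 and 38.3 in control roots, which is 0.34 ± 0.07 log2 units (limma with SE, Benjamini-Hochberg adjusted p = 0.0442). Its call was lost whichever of the 6 root libraries was left out, and that of PpCO2_25175 was lost for 5 of 6, with a limma adjusted p of up to 0.135. PpCO2_25176 and PpCO2_72513 each passed in 3 of 6. Without root sulfate 1 or root control 2 none of the 6 root calls remained (0 falls and 0 rises in each case). In a fit of all 24 libraries, with 1 spread for every organ, the members also had 0 falls and 0 rises in roots. Of all features tested, 1.1% fell and 0.512% rose in roots in that fit.

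In stem no member was called of 200 tested by limma, against 0.132% of all features that rose and 0.525% that fell; 8 members were higher and 2 lower at an unadjusted p under 0.05, against 6.09% and 5.17% of all features tested, and edgeR called 1 higher and 0 lower, against 0.144% and 0.525% of all features by edgeR. In needles no member was called either, against 0.0357% of all features that rose and 0.478% that fell. At an unadjusted p under 0.05 limma had 31 members lower and 0 higher in needles, against 4.15% and 3.11% of all features tested, and edgeR had 24 and 0, against 3.74% and 3.54% of all features by edgeR, but called none after adjustment. The median member differed by -0.15 in needles on the log2 scale, beside -0.01 over all features tested. Above their control needle mean were 48.5% of all features tested, while 149 of 200 members were below theirs. For a member whose lowest organ is needles, the rule favours a high control needle value, so this direction is partly set by the choice.

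In cotyledons 66 members passed the filter on low values and 134 did not. Of the 66, 1 passed only through sulfate libraries and 0 only through control libraries. None was called by limma, against 0.0164% of all features that rose and 0.286% that fell, with 14 higher and 0 lower at an unadjusted p under 0.05, against 4.88% and 3.45% of all features tested. By edgeR also none was called, with 13 higher and 0 lower unadjusted, against 4.85% and 3.38% of all features by edgeR. A fit of all 24 libraries called 8 of the 66 higher and 0 lower, against 0.364% and 0.575% of all features tested in that fit. The choice of low control cotyledon values favours rises among the 66 as well, so these counts are a description only. The sulfate effect differed between organs for 1 member, PpCO2_70860, against 0.348% of all features tested (limma F test of the interaction, Benjamini-Hochberg adjusted p = 0.0294). It had 4.06, 4.81 and 3.65 normalized CPM in sulfate cotyledons, against 2.12, 1.92 and 1.66 in control cotyledons, while the other organs overlapped. Its run mates PpCO2_70857 and PpCO2_70858 were not called, but were also higher in sulfate than in control cotyledons without overlap. Over all 200 members, without the filter, the median cotyledon difference was 0.18 on the log2 scale, beside 0.002 over all features. Higher with sulfate in cotyledons were 48.7% of all features that passed the filter and 154 of the members. The choice of low control cotyledon values favours this direction in the members.

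The cotyledon libraries themselves were uneven in this. The summed level of the members was 364, 247 and 236 normalized CPM in sulfate cotyledons, against 185, 249 and 175 in control cotyledons, so the groups overlapped, and sulfate 1 stood highest. In 122 of 200 members sulfate 1 was the highest sulfate cotyledon library, a count without a share over all features beside it. Other features at least 32 times higher in an organ than in cotyledons of control seedlings, members left out, are given beside them. The 4221 such features of roots summed to 695, 532 and 497 in sulfate cotyledons, against 433, 396 and 405 in control cotyledons. The 2844 of stem summed to 790.1, 569 and 554 in sulfate cotyledons, against 457, 423 and 428 in control cotyledons. The 1392 of needles summed to 125, 103 and 103 in sulfate cotyledons, against 69.3, 62.5 and 64.8 in control cotyledons. In all 3 lists the sulfate values lay above the control values. These lists, too, were chosen on control cotyledons, and their part in the members' levels was not tested. Without sulfate cotyledon 1 the median sulfate gap of the members was 3.48, against 3.37 with it.

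**Figure D5:**
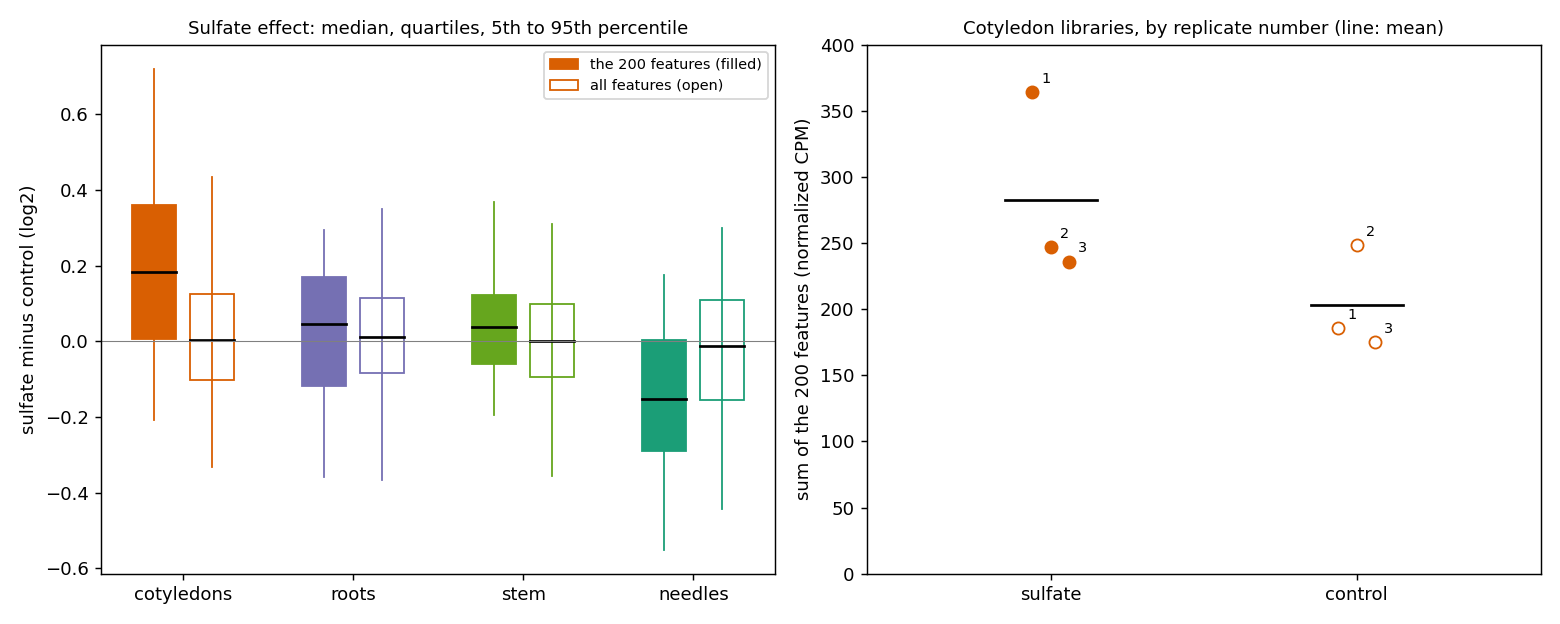
Left, difference between sulfate and control (log2 units, no filter) for the 200 members (filled) and all features (open) in each organ, as median, quartiles and the 5th to 95th percentile. The members' medians are 0.18 in cotyledons, 0.05 in roots, 0.04 in stem and -0.15 in needles. The rule used the control values of every organ. The lowest organ besides cotyledons was needles for 132 members, roots for 43 and stem for 25. Right, summed level of the members in each cotyledon library (normalized CPM, points labelled with the replicate number, line the mean of 3), where sulfate 1 is highest at 364.

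Some members departed in single libraries. These were looked for after the values had been seen, as values over 3 times the highest or less than the lowest divided by 3 of the other libraries of the group. In cotyledon control 2, 13 members stood above its companions in this way, against 0.259% of all features, while cotyledon control 1 and control 3 had 0 members each. PpCO2_36967 had 5.64 normalized CPM there, against 0.401 and 0.423 in the other control cotyledon libraries. PpCO2_28746 had 8.05, against 1.01 and 1.29. Had control 2 been left out, 186 of the 200 features would still have been chosen.

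In sulfate replicate 1, 7 members from 2 stretches of identifiers were low in both roots and stem. They are PpCO2_118577, PpCO2_118579 and PpCO2_118581, and PpCO2_172887, PpCO2_172890, PpCO2_172891 and PpCO2_172892. PpCO2_118579 had 4.72, 29.1 and 42.4 normalized CPM in sulfate roots, against 16.7, 15.4 and 10.7 in control roots, and 5.78, 77.1 and 66.1 in sulfate stem, against 23.1, 30.3 and 14.7 in control stem. Sulfate 1 lay below and sulfate 2 and 3 above all control values in both organs. In sulfate cotyledons the same feature was also lowest in replicate 1, with 0.0104, 0.510 and 1.54. Root sulfate 1 held 8 such low members and stem sulfate 1 held 7, against 0.0818% and 0.0758% of all features.

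PpCO2_134587, PpCO2_1496 and PpCO2_11878 went the other way, high in stem sulfate 1. PpCO2_134587 had 901, 273 and 247 normalized CPM in sulfate stem, against 285, 297 and 186 in control stem, and 45.1, 16.8 and 13.8 in sulfate cotyledons, against 6.16, 18.4 and 6.46 in control cotyledons. Replicate 1 was thus the highest sulfate library in both organs. Its gap in sulfate libraries was 2.84 (limma, largest Benjamini-Hochberg adjusted p of the 3 contrasts = 0.000792). The labels do not state whether libraries that carry 1 number in several organs share seedlings, so these organs are not separate support.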

How the data were processed

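The deposited table gives a signal per feature and library under the name CPM. Its columns do not add up to the fixed total of plain CPM, so the values were taken as CPM over library sizes that the authors had scaled (normalized CPM). Per the submitters' processing notes bcl2fastq and BWA were used; how reads were counted, scaled and filtered, and against which transcripts, is not given in the sources used here. Per the labels' protocols, oligo(dT)-selected RNA was read as pairs of 150 bp; keeping of strand is not stated, so overlapping antisense transcripts cannot be told apart. All deposited signal values (100%) fell on whole steps of their library within 0.01 of a step, which gave back the reads; in needle control 2 the step is close to the rounding, but 2.78% of its values are multiples of 0.01 itself.

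Groups and replicate numbers came from the labels. The chi-square per feature between libraries of a group was 10.95 to 68.1, above sampling noise, and p-values measure the spread of 3 pools. The members, lists and tests were chosen with earlier results of these data known. Tests used limma (trend, robust) on log2(value + 0.5) for features reaching 1 in 3 or more libraries of the fit, adjusted by Benjamini-Hochberg over all of them. Fold changes on that scale understate those of low features. Organ contrasts used the 12 sulfate libraries, treatment contrasts the 6 libraries of an organ, the interaction all 24. Named members were the first and last 3 ranks with the 3 features outside, the 5 highest by mean outside cotyledons, the 5 widest and 5 narrowest sulfate gaps, up to 3 changed features per organ and direction, up to 3 by interaction, and the highest of the 3 largest runs. Runs of 4 members were tied. PpCO2_161559 to PpCO2_161563 and PpCO2_70864 to PpCO2_70868 also held 4 but had no member named for their run. Alternatives were pseudocounts of 0.1 and 2, filters, median-ratio scaling, edgeR on recovered reads, a replicate block, a fit of 24 libraries and leaving out each library. The fits were also tested on simulated reads. Tools were R 4.3.3, limma 3.58.1, edgeR 4.0.16, Python 3.11.15 and matplotlib 3.10.9.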

Additional observations from a re-analysis of the deposited data

Results flagged for a closer look

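PpCO2_70860 was the member whose sulfate effect differed between organs by the interaction test over all 24 libraries (limma F test, Benjamini-Hochberg adjusted p = 0.0294), where 0.348% of all features were called. At an unadjusted p under 0.05 stood 41 members and 7.52% of all features. It had 4.06, 4.81 and 3.65 normalized CPM in sulfate cotyledons, against 2.12, 1.92 and 1.66 in control cotyledons, higher in 3 of 3 libraries. In sulfate roots it had 53.0, 44.4 and 58.1, against 55.2, 54.3 and 42.7 in control roots, and the difference was 0.03 in roots, 0.03 in stem and 0.04 in needles on the log2 scale. Within cotyledons alone the difference of 0.96 ± 0.14 (SE) did not pass (limma, Benjamini-Hochberg adjusted p = 0.0799). Over 6 alternatives the interaction's adjusted p (limma or edgeR, Benjamini-Hochberg) ran from 0.0128 to 0.179 and passed in 5. The rule favoured its low control cotyledon values, so the direction is partly set by the choice. The rise was not particular to this member. PpCO2_70857 and PpCO2_70858 of its run had 6.48, 6.99 and 3.86 and 8.86, 9.62 and 5.06 in sulfate cotyledons. Their control cotyledon values were 3.61, 3.29 and 2.81 and 4.37, 3.11 and 3.67. In the nearby run PpCO2_70864 to PpCO2_70868 the groups overlapped for PpCO2_70866 but not for PpCO2_70864, PpCO2_70865 and PpCO2_70868.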

How the results depend on the processing

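The count of members lower in cotyledons in sulfate libraries was 200 under every alternative run, and 200 without any single sulfate library. The median sulfate gap was 4.09 with a pseudocount of 0.1, 2.41 with 2, and 3.32 to 3.48 without a library. In cotyledons, members called higher with sulfate numbered 8 in the fit of 24 libraries (0.364% of all features), and 0 to 0 without a library. Those called lower numbered 0 in the fit of 24 libraries (0.575%) and 0 to 0 without a library. In roots, rises numbered 0 by edgeR (0.411% of all features), in the fit of 24 libraries (0.512%) and with the median ratio (0.437%). Without a library they numbered 0 to 3 (3 without control 1). Falls numbered 0 in the fit of 24 libraries (1.1%) and 0 to 5 without a library (2 without control 1, 1 without sulfate 2). In stem 1 member rose by edgeR (0.144% of all features) and with the median ratio (0.149%). Without a library 0 to 0 rose and 0 to 1 fell in stem (1 without control 1 or sulfate 1). In needles 0 to 0 rose and 0 to 3 fell (3 without sulfate 3). The shares of all features called by sulfate effect without a library or with the replicate block are not given here, so those counts are a description only. The interaction called 4 by edgeR (0.299% of all features), 3 with a pseudocount of 0.1 (0.282%) and 0 with 2 (0.529%). Of the members, 92 were chosen with a width limit of 1, 138 with a pseudocount of 0.1, 145 with 2, 159 by the rule in sulfate libraries and 186 to 199 without a control library. At the gap of the last member, sulfate libraries held 120 features low in cotyledons and 13 low in stem, and a pseudocount of 0.1 gave 19 low in stem. The cause of these differences was not tested. The replicate block gave 200 members lower in cotyledons, 1 rise and 6 falls in roots and 0 calls in the other organs. Around their group means, same-numbered libraries correlated at 0.128 to 0.404 between control organs, over 0.1 in 18 of 18 pairs, with the own number highest in 36 of 36 comparisons. Between sulfate organs the values were 0.065 to 0.449, 16 of 18 and 35 of 36, and between treatments of an organ -0.358 to 0.293, 5 of 12 and 14 of 24. A number may mark shared seedlings or something else shared across organs of a treatment. The labels do not say which, and it was not tested. Since not every sulfate pair passed 0.1, the organ contrasts had no block; the interaction was not run with one. Counting error limits values near 3 reads.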
